A study of Strongylocentrotus purpuratus with 8 samples.

Results

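Proteases and protease inhibitors were followed in purple sea urchin embryos (Strongylocentrotus purpuratus) in which the transcription factor SpRunt-1 had been targeted. They were chosen by name alone, as array targets of 1 gene collection whose names contain words such as metallo, disintegrin, cathepsin, trypsin, protease, tolloid, serpin, cystatin or calpain. Names of the hatching enzyme, of SPAN and other blastula proteases, and of the proteasome, caspases and metallothioneins were left out. The rule gave 51 of the 6414 targets on the array, and 44 of the 5481 targets that were bright enough to test. No measured value entered the rule, but the set was chosen with earlier results of these data known.

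Each array compared RNA of morphants, embryos from zygotes that had received a splice-blocking morpholino against SpRunt-1, with RNA of untreated embryos. Both were hatched blastulae, collected 18 hours after fertilization and raised at 15 °C in filtered seawater. There were 4 morphant cultures, each from its own mating pair of wild outbred adults, with 3600 embryos and near 5 µg of RNA in each. Untreated embryos of all 4 cultures, about 14400 in number, were pooled into 1 control RNA. Every culture was run with the dyes in either orientation, which gave 8 arrays of 2 channels. The control embryos had no agent, so an effect of the injection and an effect of the morpholino cannot be told apart. Because the control is a single pool, the spread given below is that of the morphants only. A log2 ratio is the log2 of morphant over control signal after normalization, and a ratio of 0 means an equal share of the signal. In RNA of whole embryos, fewer cells of a type and less RNA per cell cannot be told apart.

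Proteases of the cell surface and the extracellular space, such as the ADAM, astacin, tolloid and matrix metalloproteinase families, cut matrix proteins and release or activate signalling proteins. Cathepsins work mostly inside lysosomes, where they digest yolk and other proteins that cells have taken in, and cystatins bind and block the cysteine proteases among them. Calpains are calcium-activated proteases of the cytosol, and serpins trap serine proteases in an irreversible complex.

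The morphant channel had the higher median signal on 7 of 8 arrays, all but culture 1 with the morphant in Cy5. In Cy5 the medians were 67.3 to 95.5 for morphant and 59.9 to 63.2 for control RNA, and in Cy3 they were 72.8 to 86.6 and 66.4 to 70.8. Between 51.5 and 79.5% of probes stood well above background in a channel, and 19 to 81 spots per array were saturated. Loess removes the general difference in brightness within an array, and any part of it in single ratios was not tested. Of the transcripts that mark the stage, 2 of 3 hatching enzyme targets, Blimp1 and FoxA were well above background in the control RNA on all 8 arrays, and Wnt8 on at most 2. The names of Spec1, Spec2, SM50 and of adult coelomocyte genes matched no target. The brighter probe of SpRunt-1 had log2 ratios of −0.21, −0.54, −0.04 and 0.09 in cultures 1 to 4 and did not pass (adjusted p = 0.345). The other probe gave −0.27, −0.27, −0.12 and −0.11, below 0 in each culture, with a mean of −0.20 ± 0.09 (SD, n = 4). Where the probes lie relative to the blocked splice site is not given in the sources used here, so they do not check the morpholino. Culture 1 stood apart over all targets, with a correlation of 0.350 to 0.411 to the other cultures, which correlated at 0.580 to 0.668 among themselves. Over the 44 tested members these values were 0.270 to 0.407 and 0.609 to 0.726; all pairs share the control pool, and genes are not replicates. Culture 1 was the culture farthest from the median in 52.3% of members and in 34.9% of all tested targets.

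Of the 44 tested members, 3 passed, all of them higher in morphants. They were CYSTATIN B, CATHEPSIN B LIKE PR and DISINTEGRIN METALLO, and no member fell. The test was limma's on the 4 culture means, with Benjamini-Hochberg adjustment over all 5481 tested targets and a threshold of 0.05. By that rule 5.00% of all tested targets passed, 2.96% as higher and 2.04% as lower, against 6.82% of members as higher and 0 as lower. At an unadjusted p under 0.05 there were 11 members higher and 4 lower, which is 25% and 9.09% of members against 15.5% and 19.7% of all tested targets. Log2 ratios were above 0 in all 4 cultures in 13 members (29.5%, against 20.9% of all tested targets) and below 0 in all 4 in 6 members (13.6%, against 23.4%). The median log2 ratio of members was 0.11, with 26 means above 0 and 18 below, beside a median of −0.02 over all tested targets. Leaving out culture 1 raised the count to 12 members, 6 higher and 6 lower, while 887 of all targets then passed; leaving out culture 2, 3 or 4 took it to 0, with 14, 12 and 12 members at an unadjusted p under 0.05. Of all tested targets 1, 0 and 0 then passed, and 22.1, 22.2 and 24.6% had an unadjusted p under 0.05, so the loss of calls was general to the array. The 3 members above were among the 12 that passed without culture 1.

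**Figure D1:**
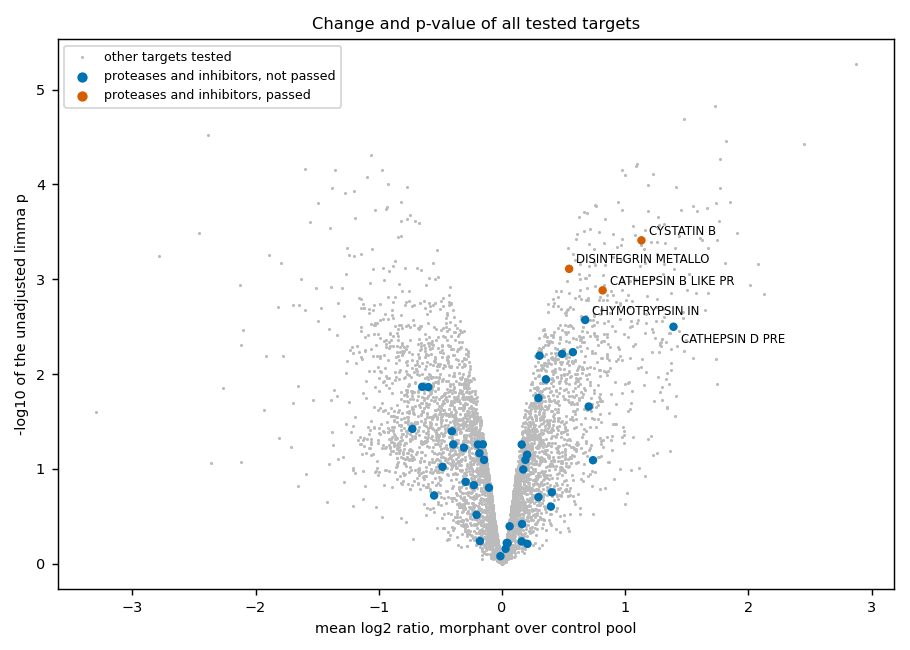
The horizontal axis is the mean log2 ratio of morphant over control pool over 4 cultures and the vertical axis is −log10 of the unadjusted limma p, for all 5481 tested targets (grey) and the 44 proteases and inhibitors (coloured). The 3 members that passed lie on the right, at 0.54, 0.82 and 1.13, and no coloured point that passed lies on the left.

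Among the targets whose printed names mark an inhibitor, 1 of 3 rose and the rest did not pass. Some cut names placed in other classes below may also be those of inhibitors. CYSTATIN B (P25417), named for an inhibitor that in mammals blocks cysteine cathepsins inside cells, had log2 ratios of 1.41, 1.19, 0.76 and 1.17 in cultures 1 to 4. All 4 cultures were well above 0, culture 3 the least so, and the 8 single arrays ran from 0.74 to 1.42. The mean was 1.13 ± 0.27 (SD, n = 4), a 2.19-fold higher level in morphants, with a 95% confidence interval of 0.81 to 1.46 on the log2 scale and a limma adjusted p of 0.0276. Its second probe gave 1.23, 1.06, 0.91 and 0.92, a mean of 1.03, and passed as well when all probes were tested (adjusted p = 0.0223). It was the member that passed most often, under 12 of 15 other settings, with means of 1.04 to 1.69 over the settings.

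Neuroserpin pr (MesTig2139) carries the name of a serpin that in mammals inhibits tissue plasminogen activator. Its log2 ratios were 0.40, −0.07, 0.92 and −0.06, so cultures 1 and 3 were high while cultures 2 and 4 lay near 0. The mean of 0.30 ± 0.47 (SD, n = 4) did not pass (adjusted p = 0.326). Protease inhibitor (Mes gi) had a mean of 0.06 ± 0.09 (adjusted p = 0.542), with culture 1 at −0.07 and the others at 0.09 to 0.13. That target was dim, and stood well above background on 6 of 8 arrays in morphant RNA and on 2 in control RNA.

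By count the cathepsins were the class with the most means above 0, 6 of 9. They and the unclassed members were the largest classes, with 9 tested targets each. Means were above 0 in 3 of 3 inhibitors and in 2 of 2 astacin and tolloid targets. Of 10 cathepsin targets on the array 9 were tested, 1 rose and none fell. Log2 ratios were above 0 in all 4 cultures in 6 of them and below 0 in all 4 in 1. Over all tested targets 2.96% passed as higher, 20.9% were above 0 in all 4 cultures and 23.4% below. The cathepsin median log2 ratio was 0.36, and the class median within a culture was 0.33, 0.41, 0.31 and 0.25 in cultures 1 to 4. The member that rose, CATHEPSIN B LIKE PR (27125), is named for a lysosomal cysteine protease and had log2 ratios of 0.43, 0.99, 0.94 and 0.91. Culture 1 was less than the other three, which lay close together, and all 8 arrays were above 0, from 0.40 to 1.02. The mean was 0.82 ± 0.26 (SD, n = 4), a 1.76-fold higher level, with a 95% confidence interval of 0.51 to 1.13 and a limma adjusted p of 0.0441. Its second probe gave a smaller rise of 0.47 (0.36, 0.57, 0.50 and 0.46 by culture) and also passed among all probes (adjusted p = 0.037). The scanner software's own ratio gave 1.58 for this target, which passed under 10 of 15 other settings.

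CATHEPSIN D PRE (Q05744) had the largest mean of the 44 members. Cathepsin D is an aspartic protease of lysosomes. Log2 ratios were 0.63, 1.33, 1.53 and 2.08, above 0 in all 4 cultures but spread widely. The mean was 1.39 ± 0.60 (SD, n = 4), a 2.62-fold level with a 95% confidence interval of 0.74 to 2.04, and it missed the threshold (adjusted p = 0.0523). The second probe gave 1.02, 0.96, 1.25 and 1.60, a mean of 1.21, and passed among all probes (adjusted p = 0.028). The target passed under 9 of 15 other settings, among them the authors' own value table (1.37, adjusted p = 0.0398) and the mean of its probes (1.30, adjusted p = 0.0394).

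A further 4 cathepsin targets were above 0 in every culture without passing, with adjusted p of 0.059 to 0.0741. Cathepsin L2 precu (Tig199), of the cathepsin L group of endopeptidases, had log2 ratios of 0.88, 0.63, 0.54 and 0.25 and a mean of 0.57 ± 0.26 (SD, n = 4, adjusted p = 0.059). Its second probe was too dim to be kept and read −0.07. CATHEPSIN L LIKE PR (9Y0X2) followed the same order of cultures, with 0.56, 0.39, 0.31 and 0.16, and a mean of 0.36 ± 0.17 (adjusted p = 0.0741). CATHEPSIN Z (P05689), a cysteine carboxypeptidase in mammals, had 0.33, 0.41, 0.41 and 0.80, so that culture 4 was the high one, and a mean of 0.49 ± 0.21 (adjusted p = 0.0598). CATHEPSIN B PRE (P07688) varied least of the 6, with 0.22, 0.41, 0.26 and 0.33, a mean of 0.30 ± 0.08 (adjusted p = 0.0605) and 0.33 at its second probe. Whether this target and CATHEPSIN B LIKE PR are copies of the same gene cannot be read from the array's shortened names, so their values may not be independent.

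The remaining 3 cathepsins had means below 0. Cathepsin L precur (Mes gi) was at −0.06, −0.10, −0.25 and −0.18, small values below 0 in each culture, with a mean of −0.15 ± 0.09 (adjusted p = 0.182). Cathepsin A (Tig334), a serine carboxypeptidase of lysosomes, had a mean of −0.11 ± 0.07 (adjusted p = 0.279). PREPROCATHEPSIN L 7 (77502) had log2 ratios of 0.21, −0.39, −0.33 and −0.40, culture 1 alone being above 0. Its mean of −0.23 ± 0.30 did not pass (adjusted p = 0.268), moved to −0.38 and passed without culture 1 (adjusted p = 0.0465), and was 0.02 with median centring in place of loess. Targets named for cathepsin L therefore had means on either side of 0, from −0.23 to 0.57.

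**Figure D2:**
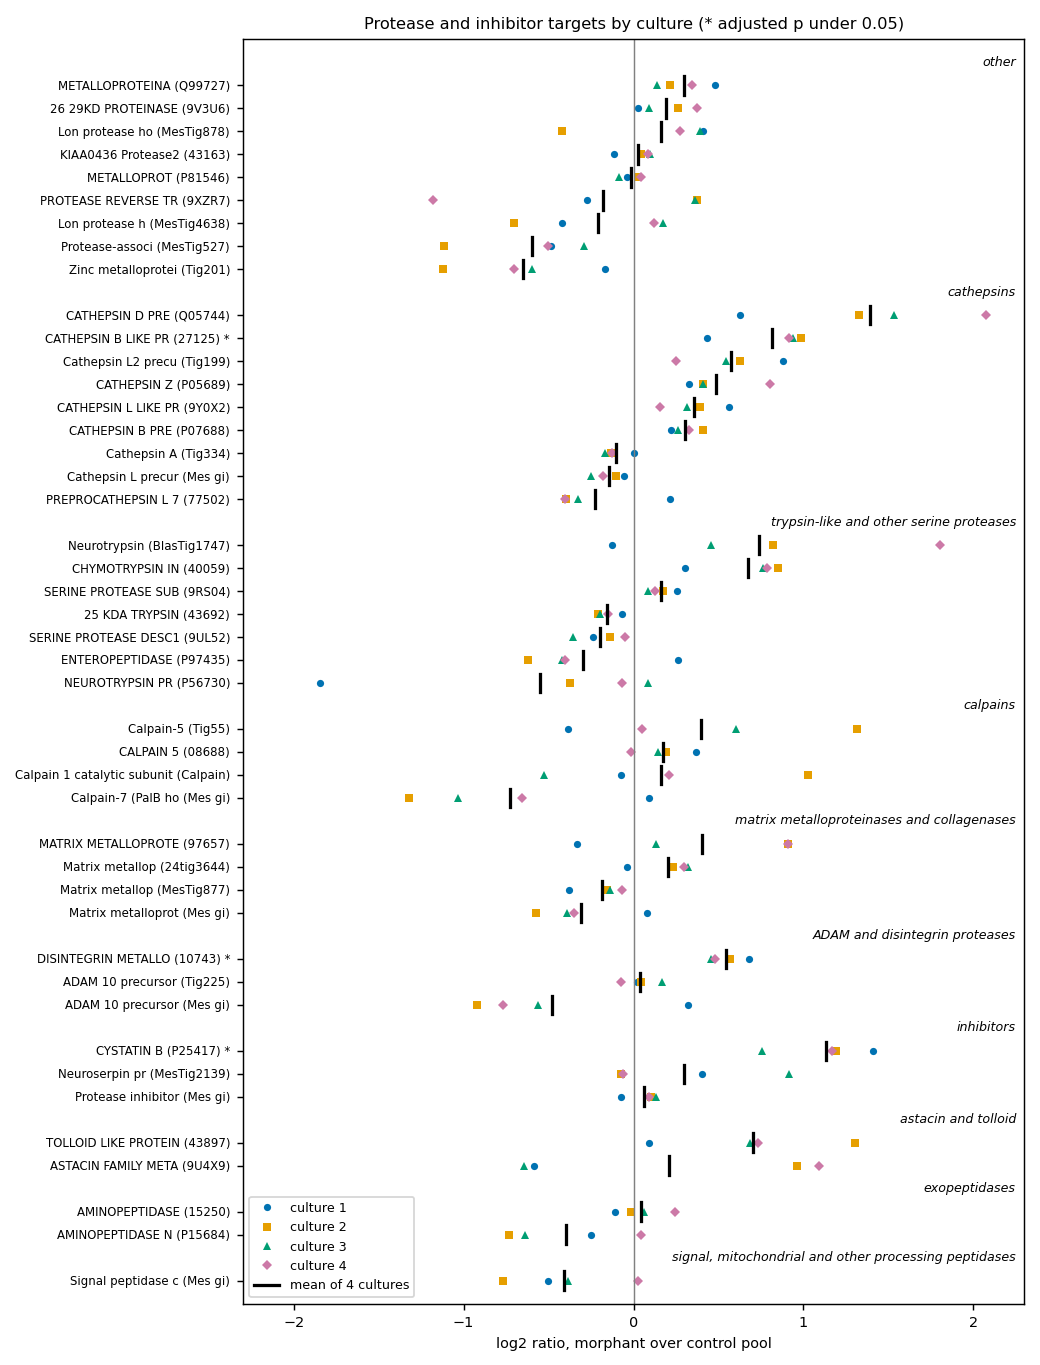
Each line is a tested target, grouped by class, and the horizontal axis is the log2 ratio of morphant over control pool; symbols are the 4 cultures (each a mean of 2 arrays) and black bars are their means. CATHEPSIN D PRE reaches 2.08 in culture 4, the 4 cultures of CYSTATIN B lie between 0.76 and 1.41, and ASTACIN FAMILY META has cultures on both sides of 0.

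In the ADAM and disintegrin class, whose members cut proteins at the cell surface, 1 of 3 tested targets rose and none fell, and the class median was 0.04. DISINTEGRIN METALLO (10743) had log2 ratios of 0.68, 0.57, 0.45 and 0.48. The 4 cultures lay within a narrow range, culture 1 this time being the highest, and single arrays ran from 0.34 to 0.74. The mean was 0.54 ± 0.10 (SD, n = 4), a 1.46-fold higher level, with a 95% confidence interval of 0.36 to 0.73 and a limma adjusted p of 0.0346. The second probe gave 0.68, 0.67, 0.45 and 0.62, a mean of 0.60 (adjusted p = 0.0295 among all probes). The target passed under 8 of 15 other settings, and missed the threshold with the scanner software's ratio (adjusted p = 0.0520), median centring (0.0646), the morphant in Cy5 alone (0.0520), the variance trend (0.0631) and without culture 2, 3 or 4 (0.103 to 0.125). The name is cut after METALLO, so which disintegrin protease it stands for is not known here.

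ADAM10 is known in flies and mammals as a protease that cuts Notch and its ligands, and 2 targets carry the name. ADAM 10 precursor (Mes gi) had log2 ratios of 0.32, −0.92, −0.56 and −0.77, so culture 1 lay on the opposite side of 0 from the others. The mean of −0.48 ± 0.56 (SD, n = 4) did not pass (adjusted p = 0.201), and without culture 1 it was −0.75 and passed (adjusted p = 0.0356). In the second probe culture 1 was instead the lowest, with −0.60, −0.08, −0.48 and −0.21. The mean of the first probe was 0.07 with median centring. ADAM 10 precursor (Tig225) was well above background on 4 of 8 arrays in either RNA and had a mean of 0.04 ± 0.10 (adjusted p = 0.718). The fourth target of the class, ADAM 17-like prote, was well above background on 0 arrays and was not tested.

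Tolloid and other astacin proteases process procollagens and, in flies and vertebrates, release BMP signals by cutting chordin. TOLLOID LIKE PROTEIN (43897) had log2 ratios of 0.09, 1.30, 0.69 and 0.73, so culture 1 was near 0 and culture 2 was the highest. Its mean was 0.70 ± 0.50 (SD, n = 4), with a 95% confidence interval of 0.16 to 1.25, and it did not pass (adjusted p = 0.0992). The second probe followed it culture by culture, with 0.17, 1.18, 0.55 and 0.57, and the mean without culture 1 was 0.91 (adjusted p = 0.0456). ASTACIN FAMILY META (9U4X9) had the widest spread of all tested members, with −0.58, 0.96, −0.64 and 1.09. Cultures 2 and 4 were above 0 and cultures 1 and 3 below it, and the mean of 0.21 ± 0.95 did not pass (adjusted p = 0.730). The second probe split the cultures in the same way, with −0.66, 0.86, −1.30 and 1.07. The last target of the class, TOLLOID (57460), was too dim to test.

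Matrix metalloproteinases, which digest collagen and other matrix proteins, gave no call among 4 tested targets in limma, with 0 at an unadjusted p under 0.05, and their median was 0.01. MATRIX METALLOPROTE (97657) had the largest mean and spread of the class, with log2 ratios of −0.33, 0.91, 0.13 and 0.91. Cultures 2 and 4 were high, as for ASTACIN FAMILY META, and the mean of 0.40 ± 0.61 (SD, n = 4) did not pass (adjusted p = 0.301). The second probe repeated the pattern, with −0.37, 0.89, 0.16 and 0.95. Matrix metalloprot (Mes gi) was at 0.08, −0.57, −0.39 and −0.35, with culture 1 alone above 0 and a mean of −0.31 ± 0.28 (adjusted p = 0.153). Without culture 1 that mean was −0.44 and passed (adjusted p = 0.0494). In its second probe culture 1 was not set apart, with −0.20, −0.09, −0.07 and −0.21 in cultures 1 to 4 and a mean of −0.14. The targets named Matrix metallop had means of −0.18 ± 0.13 (MesTig877, adjusted p = 0.165) and 0.20 ± 0.17 (24tig3644, adjusted p = 0.170), and MATRIX METALLOP (61266) was too dim to test.

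None of the 4 calpain targets passed in limma, and 1 had an unadjusted p under 0.05. Calpain-7 (PalB ho (Mes gi), named for a calpain related to the fungal protein PalB, had log2 ratios of 0.09, −1.32, −1.03 and −0.65. Culture 1 was near 0 and the other cultures were well below it, which gave a mean of −0.73 ± 0.61 (SD, n = 4, adjusted p = 0.126), the lowest of the 44 members. Without culture 1 the mean was −1.002 and passed (adjusted p = 0.0417); the second probe was too dim to be kept and read 0.02. Calpain-5 (Tig55) had −0.38, 1.31, 0.61 and 0.05, with culture 2 the high one, and a mean of 0.40 ± 0.73 (adjusted p = 0.386), which its second probe matched at 0.51. CALPAIN 5 (08688) had a mean of 0.17 ± 0.16 (adjusted p = 0.210) and was well above background on 6 arrays in morphant and on 2 in control RNA. Calpain 1 catalytic subunit had −0.07, 1.03, −0.53 and 0.21, again with culture 2 highest, and a mean of 0.16 ± 0.65 (adjusted p = 0.697).

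Of 7 targets named for trypsin-like and other serine proteases none passed in limma, 1 had an unadjusted p under 0.05, and the median was −0.16. The smallest p was that of CHYMOTRYPSIN IN (40059). Its name is cut after IN, so it may be that of an inhibitor and not of the digestive protease. The target was placed in this class by the word trypsin. It had log2 ratios of 0.30, 0.85, 0.76 and 0.79, with culture 1 below the other three. The mean was 0.67 ± 0.25 (SD, n = 4), with an adjusted p of 0.0510 and a 95% confidence interval from 0.37 to 0.98. Its second probe went the other way, with −0.12, −0.19, −0.23 and −0.05, so the target's direction differed by probe. The name 25 KDA TRYPSIN (43692) is cut too, and its mean was −0.16 ± 0.06 (adjusted p = 0.149), with all cultures between −0.21 and −0.07. SERINE PROTEASE SUB (9RS04) had a mean of 0.16 ± 0.07 (adjusted p = 0.149), and SERINE PROTEASE DESC1 (9UL52) one of −0.20 ± 0.13 (adjusted p = 0.149). For SERINE PROTEASE SUB, control RNA was well above background on 3 of 8 arrays, and the scanner software's own ratio gave 1.27 and a call (adjusted p = 0.0213).

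Neurotrypsin, a serine protease that cuts the matrix protein agrin in mammals, gave its name to 2 targets, and each was dominated by a single culture. Neurotrypsin (BlasTig1747) had log2 ratios of −0.13, 0.82, 0.46 and 1.81, culture 4 being the highest, and a mean of 0.74 ± 0.81 (SD, n = 4, adjusted p = 0.183). Its second probe was also highest in culture 4, at 1.44, and had a mean of 0.28. NEUROTRYPSIN PR (P56730) had −1.85, −0.37, 0.08 and −0.07, culture 1 being far below the rest, and a mean of −0.55 ± 0.88 (adjusted p = 0.318). In its second probe culture 1 was instead the highest, with 0.24, −0.93, −0.55 and −0.46. ENTEROPEPTIDASE (P97435), named for the mammalian activator of trypsinogen, had 0.26, −0.62, −0.42 and −0.40 and a mean of −0.30 ± 0.38 (adjusted p = 0.254). Without culture 1 the mean was −0.48 and passed (adjusted p = 0.0455), and the scanner software's ratio gave −2.32 (adjusted p = 0.0706). It was well above background on all 8 arrays in control RNA but on 3 in morphant RNA.

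Aminopeptidases remove residues from the start of a peptide chain, and neither of 2 targets passed in limma or had an unadjusted p under 0.05. AMINOPEPTIDASE N (P15684), a zinc enzyme of the cell surface, had log2 ratios of −0.25, −0.73, −0.64 and 0.04 and a mean of −0.40 ± 0.36 (SD, n = 4, adjusted p = 0.149). Culture 4 lay near 0 and cultures 2 and 3 were the lowest. AMINOPEPTIDASE (15250) was dim, with 3 arrays well above background in morphant RNA and 1 in control RNA, and its mean was 0.05 ± 0.15 (adjusted p = 0.720). The signal peptidase complex removes the leader of secreted proteins. Signal peptidase c (Mes gi) had −0.50, −0.77, −0.38 and 0.02 and a mean of −0.41 ± 0.33 (adjusted p = 0.129), while its second probe was above 0 in every culture, with 0.21, 0.34, 0.29 and 0.10.

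The other 9 tested targets matched none of these classes by their printed names, and none passed in limma, with 3 at an unadjusted p under 0.05. Zinc metalloprotei (Tig201) had log2 ratios of −0.17, −1.12, −0.60 and −0.71 and a mean of −0.65 ± 0.39 (SD, n = 4, adjusted p = 0.0804). Protease-associ (MesTig527) had −0.49, −1.12, −0.29 and −0.50 and a mean of −0.60 ± 0.36 (adjusted p = 0.0808). Both were below 0 in all 4 cultures and lowest in culture 2, but their second probes read 0.04 and 0.08. Without culture 1 Zinc metalloprotei was at −0.81 and passed (adjusted p = 0.0430). METALLOPROTEINA (Q99727) had 0.48, 0.22, 0.14 and 0.34, a mean of 0.29 ± 0.15 (adjusted p = 0.0905) and 0.30 at its second probe. Its cut name can be read as a metalloproteinase or as an inhibitor of such enzymes, as can that of METALLOPROT (P81546), which had a mean of −0.01 (adjusted p = 0.890).

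Lon proteases degrade damaged proteins in the mitochondrial matrix. Lon protease ho (MesTig878) had log2 ratios of 0.41, −0.42, 0.39 and 0.27, with culture 2 alone below 0, and a mean of 0.16 ± 0.39 (adjusted p = 0.522). Lon protease h (MesTig4638) had −0.42, −0.70, 0.17 and 0.12 and a mean of −0.21 ± 0.42 (adjusted p = 0.444). The 2 targets thus disagreed in culture 1. PROTEASE REVERSE TR (9XZR7), whose name is that of a retroelement protein, had −0.27, 0.37, 0.36 and −1.18 and a mean of −0.18 ± 0.73 (adjusted p = 0.693), and was saturated in morphant RNA on 2 arrays. The proteinase 26 29KD PROTEINASE (9V3U6) had a mean of 0.19 (adjusted p = 0.182), and KIAA0436 Protease2 (43163), dim in both RNAs, one of 0.03 (adjusted p = 0.792).

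A total of 7 members were not bright enough to test. They were ADAM 17-like prote, Cathepsin Z p (BlasTig1677), MATRIX METALLOP (61266), METALLOPROTEIN (P30120), METALLOPROTEINASE (P48032), TOLLOID (57460) and Zinc metallo (Y95B8A.1). Each was well above background on at most 3 of 8 arrays in either RNA, so a change in these could not be measured here.

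The cultures of a member lay about as far apart as those of other targets. The median SD between cultures was 0.267 for members and 0.239 for all tested targets, while the mean distance of a single array from its culture's mean over both dye orientations had a median of 0.0693 and 0.0720. An SD over 0.5 was seen in 10 members, or 22.7%, against 20.2% of all tested targets. In 15 members culture 1 lay on the other side of 0 from the mean of cultures 2 to 4. Of the 35 members with 2 probes kept, 6 had means of opposite sign at the 2 probes. Shares over all tested targets are not given for these 2 counts, so neither is read as a trait of the members. CYSTATIN B, CATHEPSIN B LIKE PR, DISINTEGRIN METALLO and CATHEPSIN D PRE had both probes above 0. Which probe of a disagreeing pair measures its transcript was not tested.

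**Figure D3:**
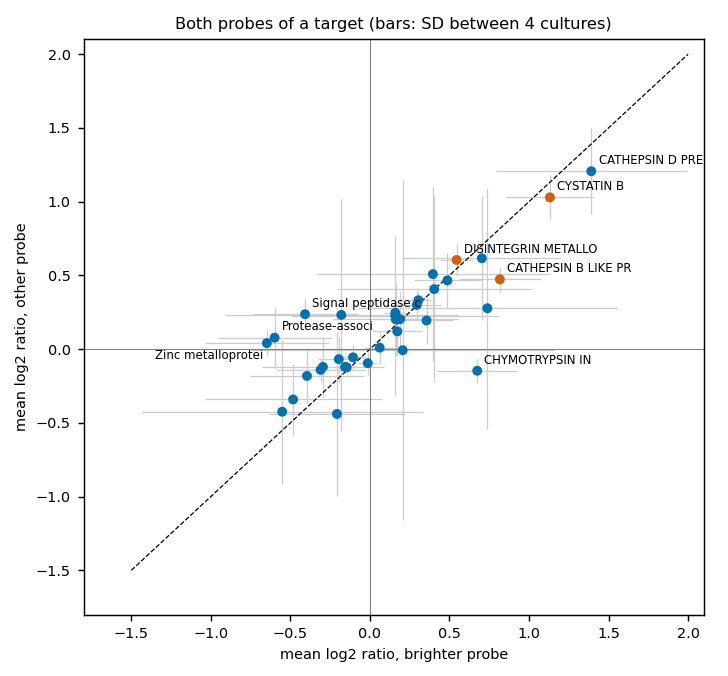
The axes are the mean log2 ratio of morphant over control pool at the brighter and at the other kept probe of 35 targets, with bars of 1 SD between the 4 cultures and a dashed line of equal values. CYSTATIN B (1.13 and 1.03) and CATHEPSIN D PRE (1.39 and 1.21) lie near the line, whereas CHYMOTRYPSIN IN (0.67 and −0.15) and Signal peptidase c (−0.41 and 0.24) have means of opposite sign.

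Median centring in place of loess moved the median of all tested targets from −0.02 to 0.10 and changed the sign of 10 members. CYSTATIN B was then the only member to pass, at 1.69 (adjusted p = 0.0443), and all 3 members that had passed stayed above 0. The 3 also kept means above 0 under each of the 15 other settings, from 0.50 to 1.05 for DISINTEGRIN METALLO and from 0.64 to 1.58 for CATHEPSIN B LIKE PR. With the culture as a random block over the 8 arrays 14 members passed, 11 higher and 3 lower, while 1444 of all targets did. That fit takes 8 values from 4 cultures, and the arrays of a culture hold the same RNA and are not replicates. The 3 lower members were Zinc metalloprotei, Protease-associ and Signal peptidase c, whose second probes read 0.04, 0.08 and 0.24.

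**Figure D4:**
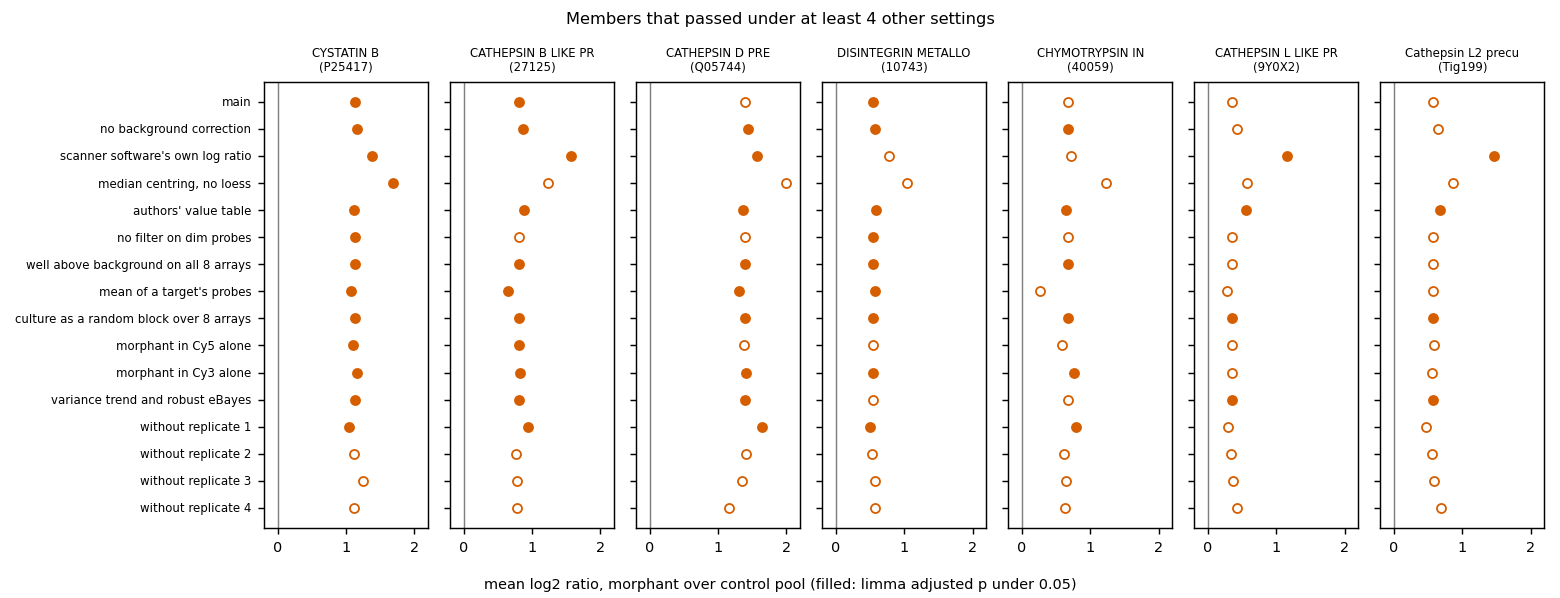
Each panel is a member that passed under at least 4 of 15 other settings, the vertical axis lists the settings with the main one at the top, and the horizontal axis is the mean log2 ratio of morphant over control pool, with filled points for a limma adjusted p under 0.05. All points lie above 0, and every panel has open points in the lines that leave out culture 2, 3 or 4 (written there as replicates).

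Possible substrates and the lysosomal compartment were described from 3 further name lists. Of 42 tested extracellular matrix targets, which include collagens, laminins, fibrillins and fibropellins, 2 rose and 2 fell, and the median log2 ratio was −0.20, against −0.02 over all tested targets. COLLAGEN VIII A fell in each culture, with −1.31, −1.25, −1.39 and −0.83 (mean −1.19, adjusted p = 0.0255). FIBRILLIN 1, a microfibril protein, fell with −1.41, −1.08, −0.81 and −0.92 (mean −1.05, adjusted p = 0.0283). LAMININ B1 CHAIN (9XZT4), of the basal lamina, rose with 0.47, 1.25, 0.88 and 0.95 (mean 0.89, adjusted p = 0.0458, 0.86 at its second probe). Laminin subunit be (Tig255) had a mean of −0.76 without passing, and −0.05 at its second probe. Fibropellin-1 prec (Tig399) rose with a mean of 0.74 (adjusted p = 0.0337), but its second probe read −0.05. Other targets named Fibropellin-1 did not pass and lay on either side of 0. Their means were −1.66 (BlasTig1252, −1.24 at its second probe), −0.59 (Mes gi Fibropellin-1 prec) and 0.57 (Mes giFibropellin-1 precu).

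Of 31 tested targets in a name list for signals and receptors that surface proteases cut or release, 1 rose and 1 fell, with a median of −0.09. The word search also took in other proteins, such as Notchless, Catenin delta-2, Delta-1-pyrroline targets and tetraspanins. The target that rose was a tetraspanin by name. D6.1A Tetraspan rose with 0.66, 0.81, 1.44 and 1.29 (mean 1.05, adjusted p = 0.0458). Sp-BMP (GLEAN3_07317) fell with −1.15, −1.96, −1.27 and −0.73 (mean −1.28, adjusted p = 0.0492), while its second probe read 0.03. Another target labelled Sp-BMP (GLEAN3_12786) went the other way without passing, with 0.08, 1.78, 1.49 and 1.82. Its mean was 1.30 (limma adjusted p = 0.0810) and its second probe read 1.21. Of 34 tested lysosomal and endocytic targets, the compartment in which cathepsins work, none rose and 1 fell, with a median of −0.03. Of these 16 were arylsulfatases, some of which are used as stage markers in sea urchins, with a median of −0.10, and the other 18, among them vacuolar ATPase subunits, had a median of 0.01. The member that fell was ARYLSULFATASE B, with −0.84, −2.06, −1.43 and −1.70 (mean −1.51, adjusted p = 0.0430, −1.79 at its second probe). The cathepsin median of 0.36 and the lysosomal median of −0.03 were not tested against each other.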

How the data were processed

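Two-colour Agilent arrays were read from the authors' deposited scanner files, which per the submitters' processing notes came from Agilent Feature Extraction (version 10.7.1.1). For every spot and channel they hold, per the file headers, the mean intensity and the median intensity of the local background, besides a log10 ratio from that software. A table of log2 ratios per spot was also deposited by the authors. Its columns correlated at 0.971 to 0.993 with loess ratios computed here, in the direction of morphant over control, with medians of 0.000503 to 0.0248. Which steps made it is not given in the sources used here.

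With limma 3.58.1 in R 4.3.3 (files read with version 1.17.8 of data.table), intensities were corrected with normexp (offset 50), normalized by loess with the 536 control spots at weight 0, turned to morphant over control, and averaged over the 2 arrays of a culture. Spots marked as outliers were dropped. Probes well above background in a channel on at least 4 of 8 arrays were kept (9563 of 12696), and each target was represented by its brightest kept probe. Each target's 4 culture means were tested against 0 in limma (lmFit, then eBayes), with Benjamini-Hochberg adjustment over all tested targets. The procedure was run on simulated data with independent cultures. These had no shared control pool and no culture set apart, so they do not check the calls under the present design.

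The members and lists were chosen with earlier results of these data known. By rule, every member past the threshold, up to 3 members of each class with the smallest p, the largest mean of each class and the 3 largest spreads were named; the other tested members are named for completeness. Alternatives were the background correction, normalization, the authors' table, the brightness filter, the mean of a target's probes, a random block, each dye orientation, a variance trend, a looser threshold and leaving out each culture. Array names are often cut, no member's identifier matched the RefSeq table (assembly Spur_5.0), and genome positions are not used here. The number of arrays limits the precision.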

Additional observations from a re-analysis of the deposited data

Results flagged for a closer look

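In 4 of the 44 tested members (9.09%) a single culture lay far from the other three, by a test of gaps that chance passes in about 1 of 20 groups of 4 and that 6.35% of all tested targets passed. CATHEPSIN B LIKE PR (27125) was at 0.43 in culture 1 and at 0.91 to 0.99 in the others. CHYMOTRYPSIN IN (40059) was at 0.30 in culture 1 and at 0.76 to 0.85 in the others. PREPROCATHEPSIN L 7 (77502) was at 0.21 in culture 1 and at −0.40 to −0.33 in the others. Lon protease ho (MesTig878) was at −0.42 in culture 2 and at 0.27 to 0.41 in the others. Culture 1 was the distant culture in 3 of the 4 members, and in 39.1% of such targets over the whole array.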

How the results depend on the processing

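The count of passing members, 3 in the report, was 5 without background correction, 6 with the scanner software's ratio, 1 with median centring, 8 with the authors' table, 2 with no brightness filter, 5 with probes above background on all 8 arrays, 5 with the mean of a target's probes, 14 with the random block, 2 with the morphant in Cy5 alone, 5 with it in Cy3 alone, 5 with a variance trend, and 13 at a threshold of 0.10; leaving out a culture gave 0 to 12. The count over all targets, 274 in the report, was 839 with the scanner software's ratio, 56 with median centring, 580 with the authors' table, 180 with no brightness filter, 413 with probes above background on all 8 arrays, 1444 with the random block, 709 with a variance trend and 1224 at 0.10; leaving out a culture gave 0 to 887, where the 887 came without culture 1. The members' median, 0.11 in the report, was 0.28 with the scanner software's ratio, 0.24 with median centring, 0.028 with no filter (51 members; 0.11 over the same 44) and 0.18 with probes above background on all 8 arrays (36 members), and 0.042 to 0.10 when a culture was left out, the lowest without culture 2 and 0.063 without culture 3. Of all tested targets 5.00% passed in the report, 5.78% without background correction and 15.3% with the scanner software's ratio. The share was 1.02% with median centring, 10.6% with the authors' table and 2.81% with no filter. It was 9.21% with probes above background on all 8 arrays, 6.40% with the mean of probes and 26.3% with the random block. The morphant in Cy5 alone gave 3.83%, in Cy3 alone 7.33%, and a variance trend 12.9%. The cause of these differences was not tested. Median centring turned ADAM 10 precursor (Mes gi) to 0.072, Signal peptidase c to 0.070, NEUROTRYPSIN PR to 0.043 and AMINOPEPTIDASE (15250) to −0.054, which was also −0.030 with the morphant in Cy3 alone. ADAM 10 precursor (Tig225) was −0.034 without background correction, −0.26 with the scanner software's ratio, −0.060 with median centring, −0.026 with the authors' table and −0.094 with the morphant in Cy3 alone. When a culture was left out, this target was at −0.0043 to 0.076, ASTACIN FAMILY META at −0.089 to 0.49 and AMINOPEPTIDASE at −0.021 to 0.096. Over the 29 members named by rule and all settings, 370 values kept direction and call, 15 lost the call, 30 gained it and 14 turned. CYSTATIN B, CATHEPSIN B LIKE PR and DISINTEGRIN METALLO stayed above 0 under each setting, and lost their calls without culture 2, 3 or 4. CATHEPSIN B LIKE PR also lost its call with median centring and with no filter, and DISINTEGRIN METALLO with the scanner software's ratio, median centring, the morphant in Cy5 alone and a variance trend. The file headers name 1 slide and 1 scan, so a slide block was not run. No paired analysis was possible because the control is 1 pool.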
